A study of Mus musculus with 18 samples.

Results

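Interferon response genes were followed in the hippocampus and cortex of mice that had received urban particulate matter (UPM, the certified city dust SRM 1648a) through the nose. The 9 genes were Irf7, Ifitm3, Bst2, Ifit1, Ifit3, Oasl2, Isg15, Usp18 and Ifi27, chosen by symbol as known interferon targets. All 9 had a row in each of the 18 count files, out of 23238 distinct symbols. The mice were male C57BL/6 animals, 7 weeks old at the start. Long-term mice received UPM 2 times per week for 3, 8, 12, 16 or 20 weeks. Short-term mice received it every day for 3, 5 or 7 days. Control mice received the vehicle, phosphate-buffered saline, for a time that the labels do not give. Each tissue had 5 long-term libraries, 3 short-term libraries and 1 control library. Every library was made from RNA pooled over the mice of its group, so no exposure time had a replicate, and the spread within a class is that between its times. The p-values therefore measure the spread between these libraries, not between mice. In bulk tissue, fewer cells of a type and less RNA per cell cannot be told apart.

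Interferons are secreted proteins that cells release on sensing viral nucleic acids. Type I interferons bind IFNAR1 and IFNAR2, whose kinases switch on the transcription factor complex ISGF3. This complex binds the interferon-stimulated response element in the promoters of many genes. In the brain, microglia, astrocytes, endothelium and neurons can all carry out this response. The 9 genes sample its layers: a transcription factor that amplifies the response (Irf7), membrane proteins that hinder virus entry or release (Ifitm3, Bst2), cytosolic RNA-directed proteins (Ifit1, Ifit3, Oasl2), a ubiquitin-like modifier and the protease that removes it (Isg15, Usp18), and a protein of membranes including those of mitochondria (Ifi27).

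The response element that links these genes was looked for in their promoters, because it is the sequence feature through which interferon acts on its targets. RefSeq windows (build GRCm38.p6) of 300 bases, from 250 before to 50 after the annotated start, were at hand for 7 of the 9, all but Ifi27 and Usp18. The letters GAAANNGAAA were searched on both strands, where the other strand reads TTTCNNTTTC, and overlapping matches were counted. They occurred in 5 of the 7 windows, against 1079 of 27025 symbols with a window (3.99%). The stretches that hold the matches follow, 5′ to 3′ on the strand of the gene, with the matches in capitals. The Ifitm3 stretch lies inside the transcript as GENCODE annotates it and is shown without flank, and the other stretches open 30 bases before their first match.
Ifitm3 (chr7:141010716-141010742, minus strand): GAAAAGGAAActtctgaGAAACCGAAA
Ifit1 (chr19:34640755-34640813, plus strand): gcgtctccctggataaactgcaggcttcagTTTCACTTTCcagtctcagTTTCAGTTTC
Ifit3 (chr19:34583343-34583416, plus strand): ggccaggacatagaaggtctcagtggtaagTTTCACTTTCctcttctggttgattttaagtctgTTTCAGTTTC
Isg15 (chr4:156200875-156200926, minus strand): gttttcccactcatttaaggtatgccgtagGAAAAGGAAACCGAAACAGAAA
Bst2 (chr8:71537587-71537632, minus strand): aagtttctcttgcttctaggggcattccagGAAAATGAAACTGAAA

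Ifit1 and Ifit3, on chromosome 19 with Ifit3b between them, carried the same pair of matches. These lay 104 and 85 bases before the RefSeq start of Ifit1 and 156 and 122 bases before that of Ifit3. Isg15 held 3 matches that overlap in a run at 78 to 66 bases before its start. The 2 matches of Bst2 also overlap, at 130 and 124 bases before the RefSeq start. Those of Ifitm3 begin at bases 3 and 20 counted from its RefSeq start. The windows of Irf7 and Oasl2 held none of these letters. Among other interferon genes listed for comparison, 11 of 28 type I effectors with a window (39.3%), 9 of 15 interferon gamma effectors (60%) and 8 of 17 interferons (47.1%) held a match. The shares were lower for sensors and adaptors (3 of 9, 33.3%) and for receptors and signal carriers (2 of 11, 18.2%). They were also lower for other IRF genes (1 of 6, 16.7%) and for genes of the ISG15 pathway (0 of 3). A match is a description of the letters and does not show binding.

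Values are read counts put on the scale of a common library size (CPM) with edgeR's TMM factors. The libraries held 5434067 to 8967430 counts, so 1 count equals 0.112 to 0.184 CPM before TMM scaling. Intervals are exact 95% Poisson intervals and cover counting error only. The tissue labels fitted the markers: all 6 genes of hippocampal neurons tested passed as higher in hippocampus and all 7 of cortical neurons as lower. The libraries also fell into 2 sets by the style of their file headers, the 3-day to 3-week libraries (8) and the control and 8- to 20-week libraries (10). The share of reads on Rn45s, which encodes pre-ribosomal RNA, was 14.83% to 18.61% in the first set and 7.75% to 12.88% in the second. Short-term exposure and control therefore never shared a set, and the length of exposure and the set cannot be told apart in that comparison. Of the long-term libraries, only that of 3 weeks in each tissue shared the set of the short-term ones. In long-term against short-term exposure, length and set can therefore hardly be told apart. Dosing also differed there, daily in short-term and 2 times per week in long-term mice, and cannot be told apart from length. The comparison of 8 to 20 weeks with control stayed within 1 set.

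**Figure D1:**
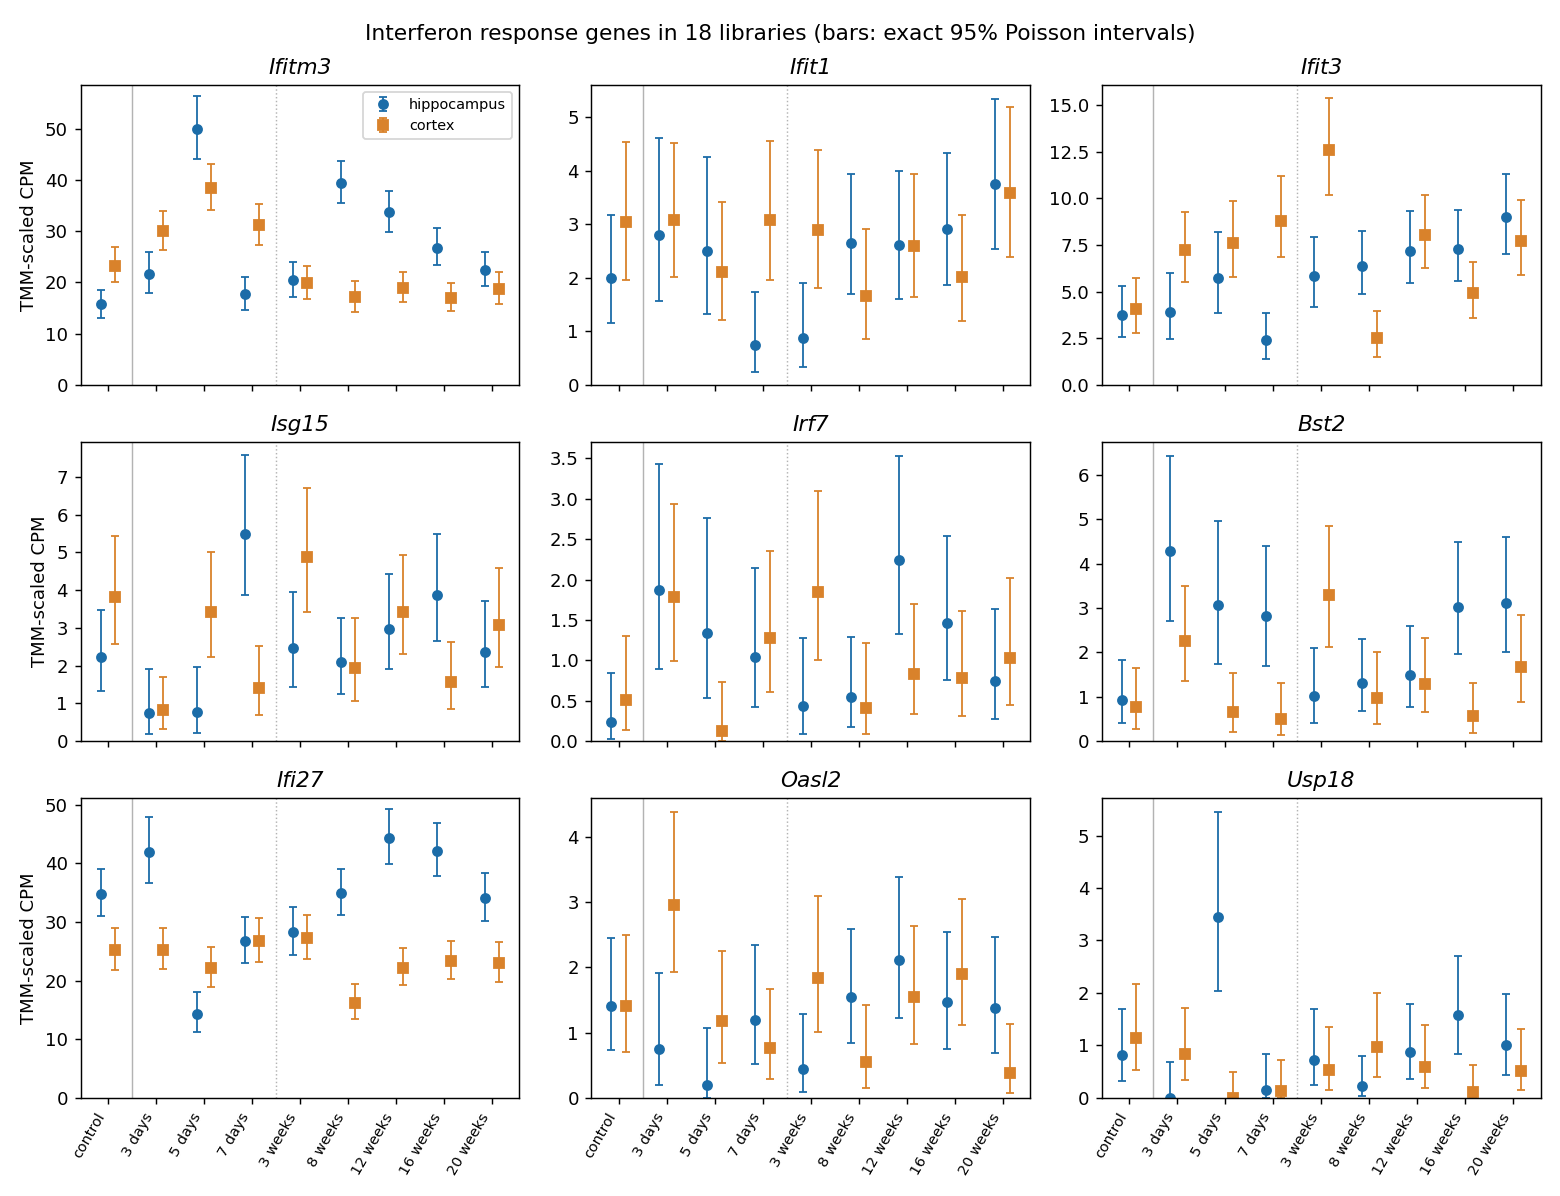
TMM-scaled CPM (vertical axes, each from 0) of the 9 genes in hippocampus (circles) and cortex (squares) at control and 8 exposure times, 1 library per point, with exact 95% Poisson intervals. The solid line parts control from UPM and the dotted line short-term from long-term exposure. Hippocampal Ifitm3 was lowest in the control at 15.7 CPM, cortical Ifitm3 lay at 30 CPM or more in the short-term libraries and below 20 CPM in the long-term ones, and most other genes scattered without order.

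The interferons themselves were not detected in any useful amount. Of 17 interferon genes listed (type I, II and III), 16 had 0 counts in all 18 libraries and Ifnk reached at most 1 count. A count of 0 allows up to 3 counts, or 0.335 to 0.552 CPM before TMM scaling, in these libraries. The receptors and signal carriers were present: all 12 genes of that list had counts, up to 2818 in 1 library, and 11 were tested.

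Irf7, the transcription factor that interferon induces and that in turn drives interferon genes, was near the limit of detection. In hippocampus it had 2 counts in the control, 10, 7 and 7 counts at 3, 5 and 7 days, and 3, 5, 18, 12 and 6 counts at 3, 8, 12, 16 and 20 weeks. In cortex it had 4 counts in the control, 15, 1 and 10 counts at 3, 5 and 7 days, and 14, 3, 7, 7 and 8 counts at 3, 8, 12, 16 and 20 weeks. All 8 hippocampal and 6 of 8 cortical UPM libraries were above their control in CPM. Of the 14865 genes tested over all libraries, 6.42% had every hippocampal UPM library above the control, so such a pattern is not rare. The hippocampal control interval, 0.0283 to 0.844 CPM, overlapped the intervals of 6 of the 8 UPM libraries and lay below those of the 3-day library (0.895 to 3.43 CPM) and the 12-week library (1.32 to 3.53 CPM). Irf7 overlaps Phrf1 on the other strand, which had 265 to 632 counts, and the strand setting of the counting is not stated, so reads of the pair cannot be told apart.

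Ifitm3, which hinders the fusion of viral envelopes with endosomes, had 116 to 358 counts per library. In hippocampus it stood at 15.7 CPM in the control, 21.7, 50.1 and 17.7 CPM at 3, 5 and 7 days, and 20.4, 39.4, 33.7, 26.8 and 22.5 CPM at 3, 8, 12, 16 and 20 weeks. In cortex it stood at 23.3 CPM in the control, 30, 38.5 and 31.2 CPM at 3, 5 and 7 days, and 19.9, 17.1, 18.9, 17.0 and 18.7 CPM at 3, 8, 12, 16 and 20 weeks. The 5-day library was the highest in both tissues. All 8 hippocampal UPM libraries lay above the control, as for 6.42% of genes tested. However, the intervals of the 7-day library (14.6 to 21.1 CPM) and the control (13.1 to 18.5 CPM) overlapped. In cortex the 3 short-term libraries lay above the control and all 5 long-term libraries below it. The spread between libraries was far beyond counting error, with a chi-squared per degree of freedom of 31.5 in hippocampus and 19.2 in cortex, where counting error alone gives 1. Its relatives Ifitm1 and Ifitm2 had 6 to 37 and 6 to 49 counts, and how reads shared among them were assigned is not stated.

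Bst2, or tetherin, which holds budding virus at the cell surface, had 4 to 25 counts per library. In hippocampus it stood at 0.935 CPM in the control, 4.29, 3.06 and 2.82 CPM at 3, 5 and 7 days, and 1.02, 1.32, 1.49, 3.03 and 3.12 CPM at 3, 8, 12, 16 and 20 weeks. In cortex it stood at 0.763 CPM in the control, 2.25, 0.657 and 0.511 CPM at 3, 5 and 7 days, and 3.29, 0.97, 1.3, 0.56 and 1.67 CPM at 3, 8, 12, 16 and 20 weeks. Every hippocampal UPM library was above the control, as for 6.42% of genes tested, and by little at 3, 8 and 12 weeks. In cortex 5 of 8 were above it, the highest being the 3-week library with 25 counts. The hippocampal library was higher than the cortical one at 8 of 9 times, which held for 11.3% of all genes tested.

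Ifit1 and Ifit3 belong to the IFIT family, which binds viral RNA and blocks its translation. Ifit1 had 5 to 30 counts. It stood at 1.99 CPM in the hippocampal control, 2.80, 2.49 and 0.742 CPM at 3, 5 and 7 days, and 0.873, 2.64, 2.61, 2.91 and 3.75 CPM at 3, 8, 12, 16 and 20 weeks. In cortex it stood at 3.05 CPM in the control and ranged from 1.66 CPM at 8 weeks to 3.59 CPM at 20 weeks. The cortical values differed by about their counting error, with a chi-squared per degree of freedom of 1.14.

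Ifit3 had 16 to 96 counts. In hippocampus it stood at 3.74 CPM in the control, 3.92, 5.74 and 2.38 CPM at 3, 5 and 7 days, and 5.82, 6.39, 7.20, 7.28 and 8.99 CPM at 3, 8, 12, 16 and 20 weeks. In cortex it stood at 4.07 CPM in the control, 7.23, 7.63 and 8.81 CPM at 3, 5 and 7 days, and 12.6, 2.50, 8.04, 4.93 and 7.70 CPM at 3, 8, 12, 16 and 20 weeks. The 5 long-term hippocampal libraries were all above the 3 short-term ones, by a margin of 5.82 against 5.74 CPM at the closest. In each tissue 7 of 8 UPM libraries were above the control, the exceptions being 7 days in hippocampus and 8 weeks in cortex. Ifit3b, a near copy, had 3 to 42 counts, and reads common to both make the split between them uncertain.

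Oasl2, a member of the oligoadenylate synthetase family with ubiquitin-like domains, had 1 to 25 counts. Its hippocampal level was 1.40 CPM in the control, 0.191 to 1.19 CPM in the short-term libraries and 0.436 to 2.11 CPM in the long-term ones. In cortex it was 1.40 CPM in the control, 0.766 to 2.96 CPM in the short-term and 0.385 to 1.90 CPM in the long-term libraries. UPM libraries lay on both sides of the control in each tissue, with 3 of 8 above it in hippocampus and 4 of 8 in cortex.

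Isg15, the ubiquitin-like protein that is attached to other proteins, had 4 to 37 counts. In hippocampus it stood at 2.22 CPM in the control, 0.747, 0.765 and 5.49 CPM at 3, 5 and 7 days, and 2.47, 2.09, 2.98, 3.88 and 2.37 CPM at 3, 8, 12, 16 and 20 weeks. In cortex it stood at 3.81 CPM in the control, 0.829, 3.42 and 1.41 CPM at 3, 5 and 7 days, and 4.87, 1.94, 3.43, 1.57 and 3.08 CPM at 3, 8, 12, 16 and 20 weeks. The highest and the lowest hippocampal library were both short-term, and 7 of 8 cortical UPM libraries were below the control. Usp18, the protease that removes ISG15 and dampens receptor signalling, had 0 to 18 counts. The 18 counts, 3.44 CPM, came from the 5-day hippocampal library. The 3-day hippocampal and the 5-day cortical library had 0 counts, which allows up to 0.56 and 0.394 CPM. In cortex all 8 UPM libraries, at 0 to 0.97 CPM, were below the control at 1.14 CPM, whose interval reached down to 0.523 CPM. The share of genes with all 8 below the control was not computed.

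Ifi27, a small hydrophobic protein of membranes, had 75 to 357 counts. In hippocampus it stood at 34.8 CPM in the control, 42.0, 14.3 and 26.7 CPM at 3, 5 and 7 days, and 28.2, 34.9, 44.3, 42.1 and 34 CPM at 3, 8, 12, 16 and 20 weeks. In cortex it stood at 25.2 CPM in the control, 25.2, 22.1 and 26.7 CPM at 3, 5 and 7 days, and 27.2, 16.2, 22.2, 23.3 and 23.0 CPM at 3, 8, 12, 16 and 20 weeks. At 5 days hippocampal Ifi27 was at its lowest, in the library where Ifitm3 was at its highest. UPM libraries fell on both sides of the control, with 4 of 8 above it in hippocampus and 3 of 8 in cortex.

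The question whether UPM of any length goes with a different level of these genes was asked with edgeR's quasi-likelihood test, tissue as a covariate and p-values adjusted by Benjamini-Hochberg over all genes tested. None of the 9 genes passed an adjusted p of 0.05, where 0.0% of 14865 genes passed. None was under an unadjusted p of 0.05, which 272 genes (1.83%) were, and DESeq2 and limma-voom also called none of the 9. The largest log2 fold changes were those of Irf7 (1.53 ± 0.86 SE, 95% interval -0.26 to 3.32, adjusted p = 0.98), Bst2 (1.13 ± 0.72, interval -0.36 to 2.63, adjusted p = 0.98) and Ifit3 (0.77 ± 0.44, interval -0.15 to 1.69, adjusted p = 0.98), 16 UPM against 2 control libraries. The intervals of Irf7 and Bst2 both reach past 2 on the log2 scale. Ifi27, with the most reads, had -0.09 ± 0.25 with an interval of -0.61 to 0.44. The median over the 9 genes was 0.00, against 0.02 over all genes.

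By exposure class the result was the same in kind. In short-term UPM against control, edgeR called none of the 9, while 288 of 14865 genes (1.94%) passed, 47 as higher (0.316%) and 241 as lower (1.62%). That count was 0 without either control library or the cortical 5-day library, 74 and 156 without the hippocampal 5- and 7-day libraries, and 825 and 1169 without the hippocampal and cortical 3-week libraries. None of the 9 was under an unadjusted p of 0.05, as 21.9% of genes were, and DESeq2 and limma-voom called none. Ifitm3 had the smallest p of the 9 (0.69 ± 0.34, adjusted p = 0.248). In long-term UPM against control, edgeR, DESeq2 and limma-voom called none of the 9, none was under an unadjusted p of 0.05, as 1.24% of genes were, and 0.0% of genes passed in edgeR. Ifit3 came nearest there (0.87 ± 0.44, interval -0.05 to 1.80, adjusted p = 1). The short- and long-term comparisons share the 2 control libraries.

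Within the set of control and 8- to 20-week libraries, 8 of the 9 genes had enough reads to be tested, all but Usp18. Ifit3 was higher in 7 of 8 UPM libraries, with a log2 fold change of 0.75 ± 0.36 (interval -0.01 to 1.52, edgeR adjusted p = 0.994, 8 against 2 libraries). Irf7 (1.38 ± 0.74) and Bst2 (0.93 ± 0.55) also had positive values in edgeR with adjusted p = 0.994. edgeR, DESeq2 and limma-voom called none of the 8, with none under an unadjusted p of 0.05. In edgeR 0.0% of 14465 genes passed, and 676 (4.67%) were under the unadjusted threshold. Beside these values, 12 of 14 microglial and 9 of 11 endothelial marker genes were positive, with list medians of 0.14 and 0.12. Choroid plexus genes and hippocampal neuron markers were more often negative than positive. The part of these marker genes in the values was not tested.

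**Figure D2:**
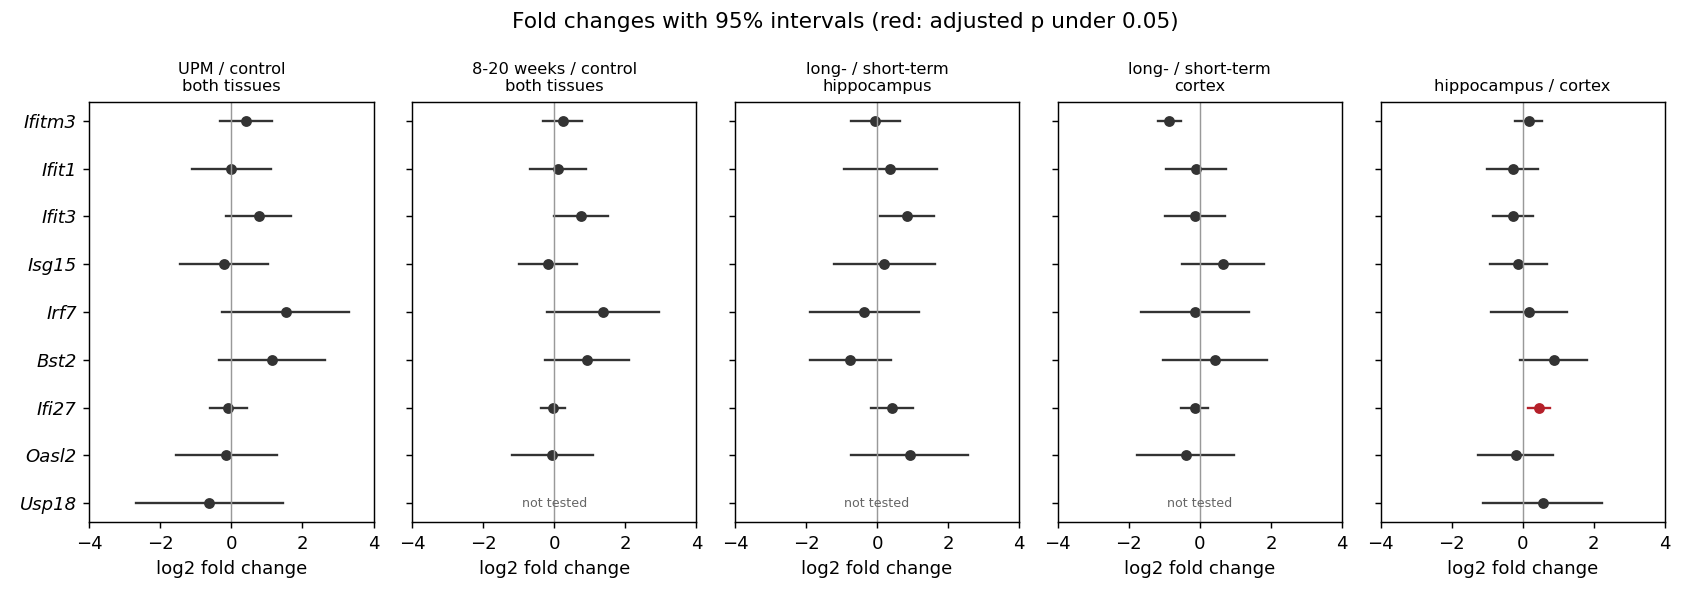
Log2 fold changes (horizontal axes) of the 9 genes (rows) with 95% intervals in 5 comparisons, from edgeR; red marks an adjusted p under 0.05. The interval of Ifi27 between the tissues is the single red one. In long- against short-term exposure, the intervals of Ifitm3 in cortex (-1.18 to -0.54) and Ifit3 in hippocampus (0.09 to 1.6) are clear of 0 without passing the adjustment. In UPM against control the intervals of Usp18 and Irf7 are the widest.

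Over 8 to 20 weeks Ifitm3 lay on opposite sides of the control in the 2 tissues. In hippocampus all 4 libraries of these times, at 22.5 to 39.4 CPM, were above the control at 15.7 CPM, and in cortex all 4, at 17.0 to 18.9 CPM, were below the control at 23.3 CPM. All 4 hippocampal libraries above the control is a common pattern, seen in 22.7% of genes and also in Ifit1, Ifit3, Irf7 and Bst2. In cortex 19.6% of genes had all 4 libraries above the control. The share of genes with all 4 below it, as for cortical Ifitm3, or on opposite sides in the 2 tissues was not computed. Fitted over both tissues, the values came to a log2 fold change of 0.24 ± 0.25 (edgeR adjusted p = 0.995), which was -0.37 without the hippocampal control library and 0.95 without the cortical one. A test of the difference between the tissues, added after these values were seen, gave 1.33 ± 0.36 (interval 0.55 to 2.11, unadjusted p = 0.00286, edgeR adjusted p = 0.496). It ranked 86 of 15037 genes by p and did not pass. There, 16 genes (0.106%) passed, 6.93% were under an unadjusted p of 0.05, and none of the 9 did in edgeR, DESeq2 or limma-voom. The difference was positive for all 9, with a median of 0.87 against 0.01 over all genes, of which 51.4% were positive. Choroid plexus genes lay on the same sides of the controls, with sums of 2604 to 6046 CPM at 8 to 20 weeks against 184 CPM in the hippocampal control, and of 260 to 461 CPM against 1685 CPM in the cortical control. All 12 of these genes had a positive difference, with a median of 6.69, and 10 of them passed in edgeR, out of the 16 genes that did. Their part in the values of the 9 genes was not tested. All 9 differences rest on the same 2 control libraries, and 1 of the 9, Ifitm3, was under an unadjusted p of 0.05.

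Over 8, 12, 16 and 20 weeks of UPM the levels were also fitted against time, and Ifitm3 had the smallest p of the 7 genes tested (Irf7 and Usp18 had too few reads). Its slope was -0.35 ± 0.15 on the log2 scale per 10 weeks (edgeR adjusted p = 0.484). The hippocampal values went down at each step, at 39.4, 33.7, 26.8 and 22.5 CPM, while the cortical values stayed between 17.0 and 18.9 CPM. Positive slopes that did not pass were those of Bst2 (0.83 ± 0.44, adjusted p = 0.581), Ifit3 (0.58 ± 0.31, adjusted p = 0.58) and Ifit1 (0.57 ± 0.31, adjusted p = 0.598). Among 13968 genes 40 passed in edgeR (0.286%), 2 with a positive slope (0.0143%) and 38 with a negative one (0.272%). None of the 7 passed in edgeR, DESeq2 or limma-voom, and 1 of them, Ifitm3, was under an unadjusted p of 0.05, as 9.79% of genes were. The count over all genes was 0 without either 8-week library.

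Long-term against short-term exposure was compared within each tissue, where length and header set largely coincide and dosing frequency differs too. Ifitm3 in cortex had the smallest unadjusted p of the 8 genes tested there. Its level was 18.3 ± 1.25 CPM in the 5 long-term and 33.2 ± 4.63 CPM in the 3 short-term cortical libraries (SD). The groups did not overlap, a pattern that 4.31% of genes showed in the same direction. The log2 fold change was -0.86 ± 0.15 (interval -1.18 to -0.54, unadjusted p = 6.15e-05, edgeR adjusted p = 0.0707), rank 7 of 13762 genes, none of which passed (0.0%) although 2921 (21.2%) were under an unadjusted p of 0.05. The other 7 genes tested were above an unadjusted p of 0.05, and limma-voom called none of the 8. Ifitm3 passed in DESeq2 (adjusted p = 0.000304), which called 691 genes in all, and with no filter on low counts (adjusted p = 0.0417). It also passed without the 3-week cortical library (-0.90, adjusted p = 0.00116), when 3093 genes did. Adjusted p over all alternatives ran from 0.000304 to 0.215.

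The same contrast in cortex moved with marker genes of several cell types and with measures of RNA. Of 14 microglial markers, 13 were lower in the long-term cortical libraries, with a list median of -0.42 on the log2 scale, and their summed level ranged from 386 to 477 CPM there and from 431 to 576 CPM in the short-term libraries. All 6 astrocyte markers were lower (median -0.59; 852 to 1090 CPM against 1240 to 1350 CPM), as were the 5 red blood cell genes (median -0.88) and the 11 choroid plexus genes tested (median -1.58). The endothelial markers had a median of 0.03. The 5 long RNAs taken as a sign of RNA quality, such as Malat1 and Meg3, were all higher (median 1.90). None of these marker genes passed the adjusted threshold, and their part in the Ifitm3 difference was not tested. In hippocampus the long-term libraries averaged 28.6 ± 7.93 CPM and the short-term ones 29.8 ± 17.7 CPM (SD), a log2 fold change of -0.05 ± 0.32 (adjusted p = 0.952).

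In hippocampus the gene nearest to a difference was Ifit3. It averaged 7.14 ± 1.20 CPM in the 5 long-term and 4.01 ± 1.68 CPM in the 3 short-term libraries (SD), with no overlap, as for 7.01% of genes in that direction. The log2 fold change was 0.85 ± 0.35 (unadjusted p = 0.0312, edgeR adjusted p = 0.189), and 38 of 13908 genes passed (0.273%), 29 as higher (0.209%) and 9 as lower (0.0647%), a count that became 2254 without the 3-week hippocampal library and 0 or 1 without any other. edgeR, DESeq2 and limma-voom called none of the 8 genes tested, Usp18 having too few reads, and 1 of the 8, Ifit3, was under an unadjusted p of 0.05, as 21.7% of genes were. None of the 9 was lower without overlap in the long-term hippocampal libraries, as 5.25% of genes were. Beside this, the 5 long RNAs taken as a sign of RNA quality were all higher in the long-term hippocampal libraries (median 2.61), and 3 of them passed. Their sum divided the libraries as the file headers do. It was 3570 to 4807 CPM in the 3-day to 3-week hippocampal libraries. In the hippocampal control and 8- to 20-week libraries it was 24254 to 27095 CPM. Of 12 markers of mural cells and fibroblasts 11 were positive (median 0.65). Over the 9 hippocampal libraries Ifit3 correlated at 0.61 with each of these 2 lists, and at 0.6 with choroid plexus genes and with blood leukocyte markers. Over the 9 cortical libraries it correlated at -0.76 with the long RNAs and at 0.52 with mural cell and fibroblast markers. The part of these lists in the Ifit3 values was not tested. In cortex Ifit3 averaged 7.16 ± 3.80 CPM in the long-term and 7.89 ± 0.826 CPM in the short-term libraries, with overlap (-0.14 ± 0.39, adjusted p = 0.857). Whether the contrast differed between the tissues was tested directly. The difference, hippocampus minus cortex, was 0.81 ± 0.38 for Ifitm3 (unadjusted p = 0.0442, edgeR adjusted p = 0.621) and 0.99 ± 0.54 for Ifit3 (adjusted p = 0.703). In the same fit all 12 choroid plexus genes were positive (median 1.85), as were 11 of 12 markers of mural cells and fibroblasts (median 1.37) and 12 of 14 microglial markers (median 0.38), none of which passed, and their part was not tested. None of the 8 genes passed in edgeR, DESeq2 or limma-voom, 1 was under an unadjusted p of 0.05 where 7.79% of genes were, and 0.0% of 14427 genes passed in edgeR.

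Within the 3-day to 3-week libraries, 3 weeks was compared with 3 to 7 days over both tissues. Dosing frequency differed in this comparison too. Ifitm3 was lower at 3 weeks, at 20.4 CPM in hippocampus and 19.9 CPM in cortex, than in 2 of the 3 hippocampal and all 3 cortical first-week libraries (log2 fold change -0.65 ± 0.33, edgeR adjusted p = 0.999). Ifit3 was above all of them in both tissues, at 5.82 and 12.6 CPM (0.61 ± 0.38, adjusted p = 0.999). edgeR, DESeq2 and limma-voom called none of the 8 genes tested, none was under an unadjusted p of 0.05 where 4.32% of genes were, and 0.0% of 14036 genes passed in edgeR.

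Between the tissues 1 of the 9 genes passed, Ifi27, which averaged 33.5 ± 9.41 CPM in hippocampus and 23.5 ± 3.30 CPM in cortex (SD, 9 libraries each). With exposure time as a block, its log2 fold change was 0.47 ± 0.15 (interval 0.16 to 0.78, edgeR adjusted p = 0.037). It was higher in hippocampus at 8 of 9 times, all but 5 days, as were 11.3% of the genes tested. In edgeR 2507 of 14865 genes (16.9%) passed, 1130 as higher (7.6%) and 1377 as lower (9.26%), so 1 in 9 is no more than the share of all genes. In the control and 8- to 20-week libraries alone the difference was 0.78 ± 0.11 (adjusted p = 0.000443), and in the 3-day to 3-week libraries alone it was 0.07 ± 0.22 (adjusted p = 0.923). The call was also lost when either library of the control, 3 days, 8, 12, 16 or 20 weeks was left out, at 0.39 to 0.47 and adjusted p from 0.0677 to 0.112. Beside it, all 12 choroid plexus genes were positive (median 1.35) and 4 of 6 astrocyte markers passed as higher, and their part was not tested. Bst2 had a larger but less certain value (0.87 ± 0.45, adjusted p = 0.211), and Ifitm3 averaged 27.5 ± 11.4 CPM in hippocampus and 23.8 ± 7.63 CPM in cortex (0.17 ± 0.18, adjusted p = 0.602).

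The wider pathway was read from lists of interferon genes, in the order of sensors, receptors and effectors. Of all genes listed, 5 differed between the tissues by edgeR, and none passed in any comparison of exposure. Lower in hippocampus were Herc6, the main enzyme that attaches ISG15 in mice (-1.72 ± 0.23, adjusted p = 4.44e-05), Ifih1, which encodes the RNA sensor MDA5 (-1.36 ± 0.44, adjusted p = 0.0399), and Samd9l, an antiviral gene that restrains cell growth (-1.14 ± 0.36, adjusted p = 0.0362). Higher in hippocampus were Ifngr2, a chain of the interferon gamma receptor (0.38 ± 0.11, adjusted p = 0.0244), and Iigp1, a GTPase against vacuolar parasites (0.82 ± 0.28, adjusted p = 0.0499). Herc6 was at 1.63 to 10.9 CPM in hippocampus and 5.75 to 18.2 CPM in cortex. After the data were seen, the tissue difference was compared between the header sets, as the set with the controls minus the other. This gave 2.82 ± 0.67 for Ifih1 (edgeR adjusted p = 0.21) and 1.71 ± 0.59 for Samd9l (adjusted p = 0.313). Their lower level in hippocampus was thus more marked in the set without the controls, though neither change passed. Herc6 (0.68 ± 0.45), Ifngr2 (0.14 ± 0.22) and Iigp1 (-0.2 ± 0.56) had smaller changes. By list, 1 of 10 sensors and adaptors, 1 of 11 receptors and signal carriers, 0 of 6 IRF genes, 2 of 27 type I effectors, 1 of 15 interferon gamma effectors and 1 of 3 ISG15 pathway genes passed. Herc6 is counted in 2 of these lists, and the share over all genes was 16.9%.

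At 8 to 20 weeks against control, more effectors were positive than negative, without any that passed. Of 27 type I effectors tested 20 were positive, with a median log2 fold change of 0.23, and of 15 interferon gamma effectors 12 were, with a median of 0.47, against 52.1% and 0.01 over all genes. Some marker lists also leaned positive in this fit, among them those of microglia (12 of 14) and endothelium (9 of 11). Choroid plexus genes, hippocampal neuron markers and the long RNAs taken as a sign of RNA quality were more often negative than positive. All of these values rest on the same 2 control libraries. The smallest p among the effectors were those of Ddx60, an RNA helicase (1.90 ± 0.66), Cd274, the checkpoint ligand PD-L1 (1.29 ± 0.47), Lgals3bp, a secreted galectin-binding protein (0.61 ± 0.23), and Irgm2, a GTPase (1.06 ± 0.50), all with edgeR adjusted p = 0.994. Among sensors it was Myd88, the Toll-like receptor adaptor (0.63 ± 0.24), and among transcription factors Irf1 (0.42 ± 0.17), at the same adjusted p. Ddx60 had 9 to 25 counts in the 4 hippocampal and 6 to 18 in the 4 cortical libraries of 8 to 20 weeks, and 5 and 2 counts in the controls. Receptors and signal carriers were divided, with 6 of 11 positive and a median of 0.01.

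**Figure D3:**
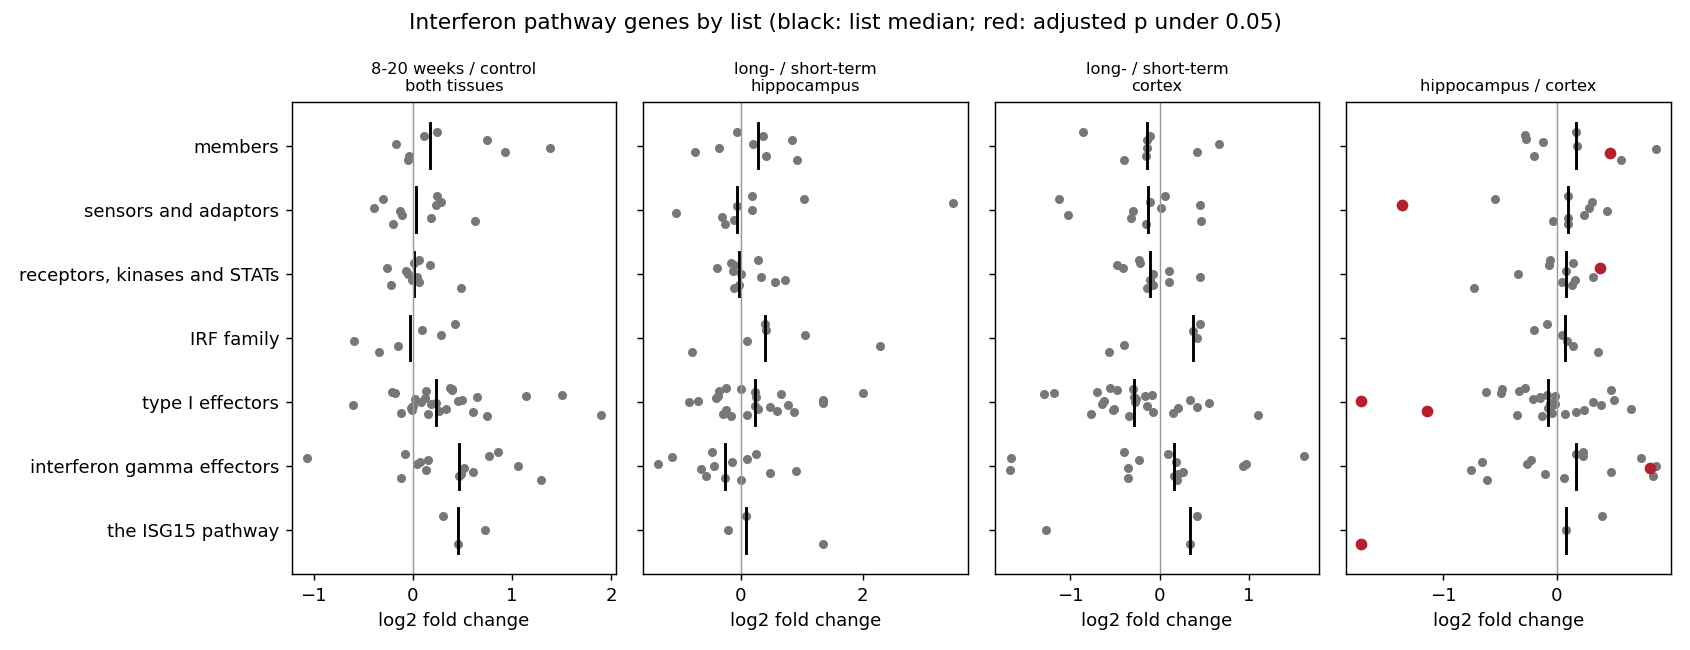
Log2 fold changes (horizontal axes, different ranges) of the interferon genes tested, by list (rows), in 4 comparisons; grey dots are genes, red dots those with an edgeR adjusted p under 0.05, and black bars list medians. The red dots stand in the comparison of the tissues: Ifi27, Ifih1, Ifngr2, Herc6 (in 2 lists), Samd9l and Iigp1.

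Comparisons of long-term with short-term exposure brought single pathway genes close to the threshold. In hippocampus, long-term against short-term, Ifih1 had 3.48 ± 0.90 (edgeR adjusted p = 0.0692), with 4, 30, 30, 29 and 19 counts at 3, 8, 12, 16 and 20 weeks and 2, 0 and 2 counts at 3, 5 and 7 days. The control had 18 counts and the 3-week library 4, so the low libraries were those of the 3-day to 3-week set. Adar, the RNA editing enzyme that keeps own RNA from being sensed, had 0.49 ± 0.13 in the same contrast (adjusted p = 0.0707) and -0.53 ± 0.14 in short-term UPM against control (adjusted p = 0.0506). Its level was 35.7 to 47.4 CPM in the 3-day to 3-week libraries and 53.7 to 62.7 CPM in the control and 8- to 20-week libraries, with no overlap, which is the split of the file headers. Irf3, the factor that switches on type I interferon, had 1.06 ± 0.31 (adjusted p = 0.0875) in the hippocampal contrast. In cortex the smallest p on the lists were those of Tmem173, which encodes STING (-1.03 ± 0.36, adjusted p = 0.152), and Irf2 (0.37 ± 0.13, adjusted p = 0.156).

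The 9 genes did not move as a block. Over the 18 libraries, with the mean of each tissue removed, the 36 pairs had a median Pearson correlation of 0.17 in log2 CPM, from -0.40 to 0.65, where pairs of all genes with at least 5 CPM had a median of 0.00. Irf7 with Bst2 and Ifi27 with Oasl2 had the highest value, 0.65, and Ifi27 with Usp18 the lowest. Ifitm3 and Ifit3 had 0.42. These correlations describe libraries that share depth, header set and tissue composition, and most of the 9 genes have few counts.

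Genes most like the 3 with the most reads were named by the same correlation among 10950 genes. For Ifitm3 they were Ctsc (r = 0.84), a lysosomal protease, Hspb1 (0.82), a small heat shock protein, Cp (0.82), the copper-carrying ferroxidase, Anxa2 (0.78), Ahnak (0.77) and Tppp3 (0.77). For Ifit3 they were Osbpl11 (0.76), Cdkn1c, Ptgds, Myoc and Wls (0.75 each) and Slc13a4 (0.74), of which Ptgds and Slc13a4 are genes of the meninges and choroid plexus. For Ifi27 they were Utp14a (0.88), Kat2b (0.86), Iqcg, Rnf217 and Clk1 (0.85 each) and Cdkl1 (0.84). None of these 18 genes is on an interferon list used here.

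The level of Ifitm3 was set beside summed markers of cell types. In hippocampus its level went with the summed endothelial markers (r = 0.82 over 9 libraries) and less with astrocytes (0.33) and microglia (0.10), and in cortex with astrocytes (0.90) and microglia (0.83) and less with endothelium (0.26). The highest hippocampal values, at 5 days and 8 weeks, were also those with the highest endothelial sums, 269 and 272 CPM. Blood leukocyte markers summed to 0.148 to 28.3 CPM in hippocampus and 0.355 to 48.4 CPM in cortex, with the highest sum of each tissue at 5 days, the library where Ifitm3 was highest too (r = 0.55 in hippocampus, 0.74 in cortex). Among the leukocyte markers, Cd3e and Nkg7 were at 0 in the controls and the short-term libraries of both tissues. In cortex Ifitm3 ran against the cortical neuron markers (r = -0.78). Ifi27 went with choroid plexus genes in both tissues (0.58 in hippocampus, 0.62 in cortex), and with astrocyte markers in opposite ways (-0.59 in hippocampus, 0.47 in cortex). These values are descriptions over 9 libraries each, and the part of cell composition in the levels of the 9 genes was not tested.

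**Figure D4:**
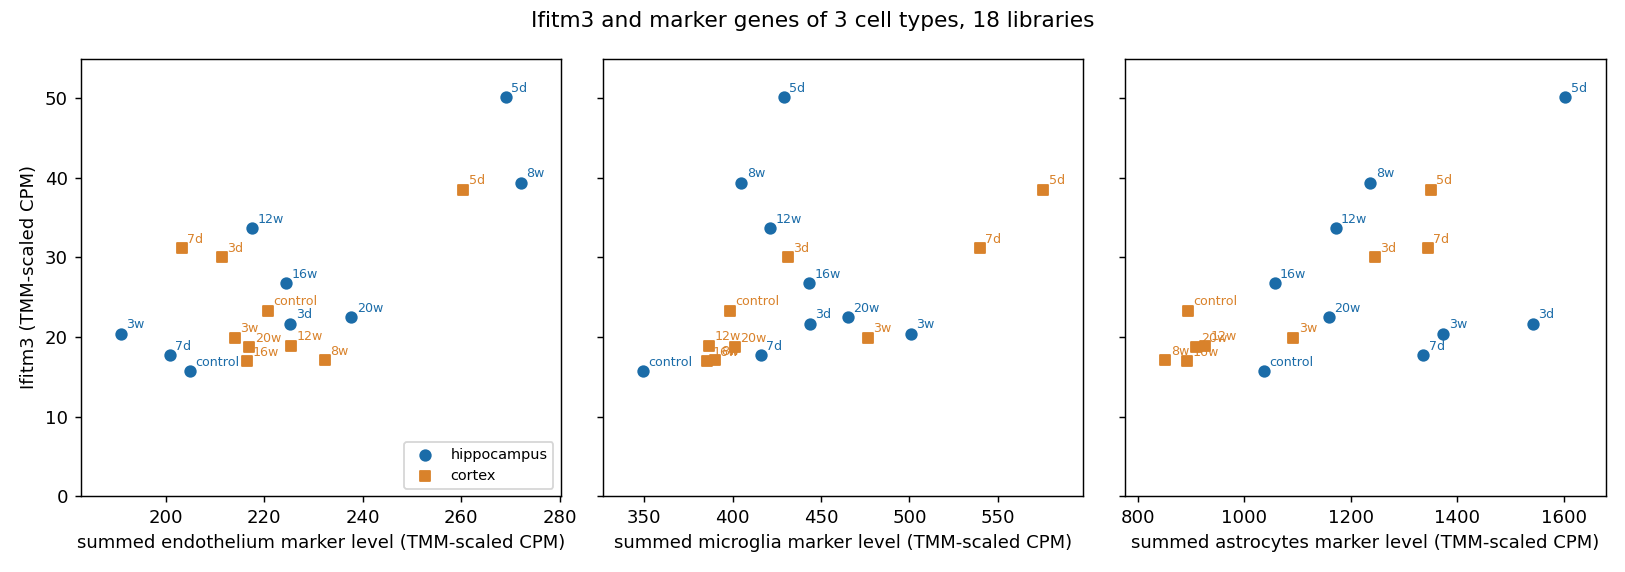
Ifitm3 (vertical axis, TMM-scaled CPM) against the summed level of endothelial, microglial and astrocyte markers (horizontal axes, CPM) in hippocampus (circles) and cortex (squares), 1 library per point, labelled by control or time in days (d) or weeks (w). Hippocampal points rise along the endothelial axis (r = 0.82) and cortical points along the microglial (0.83) and astrocyte (0.90) axes.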

How the data were processed

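RNA pooled per group was sequenced from its 3' ends (QuantSeq, single-end 75 base reads), per the labels' protocols. The values deposited by the authors are raw read counts per gene symbol, 1 file per library, without normalization. Bowtie2, bedtools, edgeR and the build mm10 are named in the submitters' processing notes; versions, roles, annotation and strand setting are not given in the sources used here. Files hold 23282 lines for 23238 symbols. Lines of the same symbol were added up, and 27 symbols that 2 files show as dates were put back.

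Depth ran from 5434067 to 8967430 counts per library, where the floor, 3 counts, is 0.335 to 0.552 CPM. Intervals cover counting error only. Tests used edgeR 4.0.16 in R 4.3.3 (filterByExpr, TMM, quasi-likelihood F test, Benjamini-Hochberg over all genes tested), with SE taken from the fold change and its F value. Tissue was a covariate over both tissues, and exposure time a block between tissues. Alternatives were DESeq2 1.42.0, limma-voom (limma 3.58.1, added after the data were seen when run without a block), total counts alone, RLE size factors, no filter, exposure time as a block and leaving out each library. The procedure was tested on simulated data. Same-time libraries of the 2 tissues were not treated as pairs in the other comparisons. The 9 genes, lists and markers were chosen with earlier results of these data known. The 9 genes are all named, other list genes by threshold or the smallest p per list, and genes most like Ifitm3, Ifit3 and Ifi27 by the 6 highest correlations. Positions, all on GRCm38 (mm10), come from RefSeq and GENCODE M21. The tests of a difference between tissues at 8 to 20 weeks and between header sets were added after the data were seen.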

Additional observations from a re-analysis of the deposited data

Results flagged for a closer look

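Ifitm3 drew attention because its 8- to 20-week libraries lay on opposite sides of the control in the 2 tissues: 4 of 4 were above it in hippocampus and 0 of 4 in cortex. All 4 above the control was seen in 22.7% of genes in hippocampus and 19.6% in cortex. The share of genes with all 4 below it in cortex, or on opposite sides in the 2 tissues, was not computed. Summed choroid plexus genes lay on the same sides of the controls, at 2604 to 6046 CPM at 8 to 20 weeks against 184 CPM in the hippocampal control, and of 260 to 461 CPM against 1685 CPM in the cortical control. Their part in the Ifitm3 values was not tested. The difference was tested after this was seen and did not pass (log2 1.33 ± 0.36 SE, edgeR adjusted p = 0.496, from 0.16 to 0.718 over the alternatives). Each tissue has 1 control library, so the pattern rests on 2 libraries. Among 18 groups of a gene and a tissue's long-term libraries checked for a library far from the others, 0 were found.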

How the results depend on the processing

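Of 1911 recomputed log2 fold changes of the 9 genes, from 101 results, 1895 kept their side of the threshold, 13 lost a call, 3 gained one and 0 called values changed direction, while 104 values without a call changed sign. The count of the 9 genes called moved in few settings. In cortex, long-term against short-term, it was 1 with no filter and 1 with DESeq2 (Ifitm3), against 0. Between the tissues it was 0 in the 3-day to 3-week libraries only, against 1 (Ifi27), and 1 without the block of exposure time (0.51 ± 0.16, adjusted p = 0.0357). Leaving out 1 library gave 0 to 1 in both comparisons. With exposure time as a replicate block, limma-voom called 0 of the 9 genes in every comparison so fitted. Across genes, deviations of same-time libraries correlated at -0.08 to 0.16 and those of different times at -0.14 to 0.13, while the within-time correlation that limma estimated for the block was 0.299 for UPM against control, 0.19 for short-term and for long-term against control, 0.234 for the tissue difference in length and -0.054 to 0.019 in the other fits. Counts over all genes moved more. Short-term against control gave 288, 803 with total counts alone, 969 with DESeq2, 0 with the block and 0 to 1169 leaving out 1 library. Long-term against short-term in hippocampus gave 38, 1 with RLE, 607 with total counts alone, 256 with no filter, 1111 with DESeq2, 0 with limma-voom and 0 to 2254 leaving out 1 library; in cortex it gave 0, 60 with no filter, 691 with DESeq2, 9 with limma-voom and 0 to 3093. The slope gave 40, 25 with total counts alone, 62 with no filter, 104 with DESeq2 and 0 to 71. The 3-week comparison gave 0, 11 with no filter and 8 with DESeq2, and the difference between tissues in length 0 and 25 with DESeq2. Between the tissues it was 2507, 1629 without the block and 656 in the 3-day to 3-week libraries. The cause of these shifts was not tested. Of 144 ratios of single libraries to control, 3 moved with a prior count of 0.5, all of Usp18 (-3.76, -4.21 and -2.77), which has few counts. Depth limits Irf7, Usp18, Oasl2, Bst2, Ifit1 and Isg15, which had 37 counts or fewer in every library. Time, age and number of doses rose together within each exposure class. Dosing was daily in short-term and 2 times per week in long-term mice, so dosing frequency changed with class. The control's time is not stated.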

Other observations

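The difference, hippocampus against cortex, in the control and 8- to 20-week libraries minus that in the 3-day to 3-week libraries, was compared after the data were seen. It was 1.40 ± 0.41 for Ifit3 (unadjusted p = 0.00363, edgeR adjusted p = 0.261), 0.73 ± 0.24 for Ifi27 (adjusted p = 0.313), 0.69 ± 0.32 for Ifitm3 (adjusted p = 0.442) and 1.93 ± 0.91 for Oasl2 (adjusted p = 0.45). These 4 of 9 were under an unadjusted p of 0.05, as were 1636 of 14865 genes, and 0 passed the adjustment in edgeR, DESeq2 or limma-voom. All 12 choroid plexus genes (median 2.71) and 11 of 12 markers of mural cells and fibroblasts (median 1.32) were positive in the same fit, none of them past the adjustment, and their part was not tested. Ifit3 was lower in hippocampus than in cortex at all 4 times of the 3-day to 3-week set, at 2.38 to 5.82 CPM against 7.23 to 12.6 CPM.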
